A study of Homo sapiens with 4 samples.

Results

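The 10 desmosome genes DSC2, DSC3, DSG2, DSG3, DSP, PKP1, PKP2, PKP3, JUP and PERP were followed in NCI-H520, an established cell line of lung squamous cell carcinoma. They were taken by symbol from a deposited table of read counts for 28277 genes, and all 10 were found there. In the Hx1R8 group (2 libraries) cells were exposed to 10 µM Hx1R8 for 12 h, and in the Vehicle group (2 libraries) they received ultrapure water. All 4 libraries came from the same line, labelled WT, grown with 15% fetal bovine serum, and 1.5 µg of total RNA went into each. The labels do not describe the composition of Hx1R8. They also do not say whether replicates were separate cultures, so each p-value reflects the spread among these libraries alone, which may be technical. The series concerns SOX2 self-association and drug resistance. Vehicle replicate 2 stood furthest from the other libraries, with a chi-square per gene of 2.28 to 2.95 against each of them, compared with 1.49 to 1.79 among the other 3.

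Desmosomes are the spot-like junctions that tie the keratin filaments of neighbouring epithelial cells together. Desmogleins (DSG) and desmocollins (DSC) are cadherins that span the membrane and bind each other between cells, plakoglobin (JUP) and the plakophilins (PKP) are armadillo proteins that bind the cadherin tails, and desmoplakin (DSP) links this plaque to the filaments. DSG3 and DSC3 are typical of the basal layers of stratified epithelia such as the epidermis, PKP1 of their suprabasal layers, whereas DSG2, DSC2 and PKP2 occur in simple epithelia and also in heart muscle.

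Desmosome reads of the line came from PERP, DSP, JUP, DSG2, PKP3, PKP2 and DSC2, with few from DSC3, almost none from PKP1 and none from DSG3. Levels compared between genes are CPM, read counts scaled to library size with TMM factors, divided by the kilobases of exon listed for the gene. On that scale the order was PERP, DSP, JUP, DSG2, PKP3, PKP2, DSC2, DSC3, PKP1 and DSG3. The ranges over the 4 libraries did not overlap for any neighbours in that order, although DSP stood only 1.19-fold above JUP and JUP only 1.13-fold above DSG2. By the same measure PERP ranked 286 and DSP 1485 among all 28277 genes, against 12162 for DSC3 and 18047 for PKP1. Summed over the 10 genes, the reads came to 1529 and 1559 CPM in Hx1R8 libraries, against 1549 and 1536 CPM in Vehicle libraries, so the groups overlapped.

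**Figure D1:**
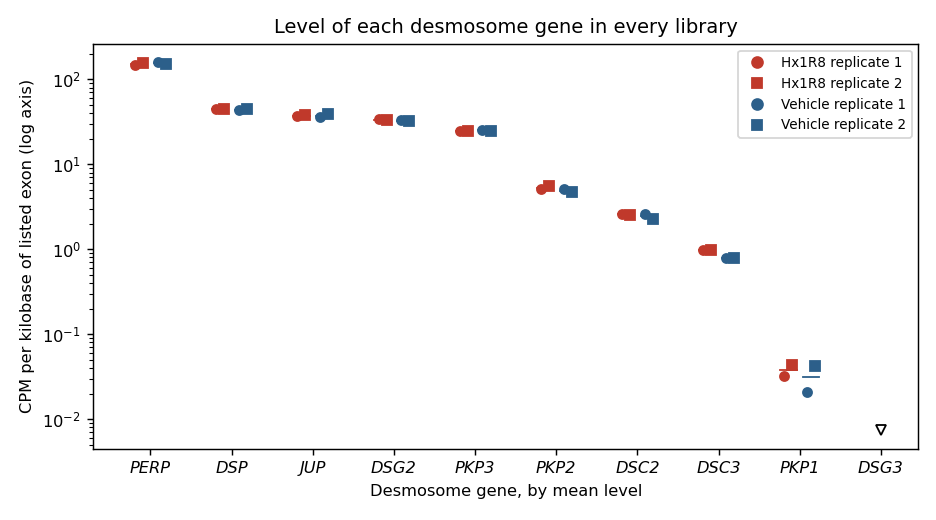
CPM per kilobase of listed exon (log axis) of each desmosome gene in every library, with the mean of each group as a short line. From PERP to DSC3 the 4 points of a gene lie close together, and the open triangle for DSG3, with no read in any library, marks the upper limit of 0.00737 that 3 reads over all libraries allow.

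The order depended in part on the length assigned to a gene. DSC2 is listed with 12376 exon bases, and its GENCODE v29 coding transcripts have a median length of 4826 bases. With such median lengths DSC2 reached 6.44 CPM per kilobase over the 4 libraries and stood above PKP2 at 5.30, and DSG2 at 54.4 stood above DSP at 49.0. The DSG2 median of 3456 bases includes an annotated transcript of 1081 bases. PERP at the top, PKP3 in the middle and DSC3, PKP1 and DSG3 at the end kept their places under both lengths.

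Nearly all desmoglein reads came from DSG2. DSG2 (chromosome 18, 31498177 to 31549007, plus strand) had 34.0 and 32.8 CPM per kilobase in Hx1R8 libraries, against 33.1 and 32.2 in Vehicle libraries, and the groups overlapped. DSG3 (31447741 to 31478702), the antigen of pemphigus vulgaris, had 0 reads in each of the 4 libraries, whose totals ran from 17259403 to 20920857. That allows up to 0.0411 CPM, or 0.00737 CPM per kilobase, at 3 reads over the 4 libraries, a limit that covers counting error only. DSG3 was therefore 0% of the summed DSG2 and DSG3 level in every library.

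The desmocollins were scarcer than DSG2, and both were detected. DSC2 (chromosome 18, 31058841 to 31102421, minus strand) had 2.63 and 2.55 CPM per kilobase in Hx1R8 libraries, against 2.59 and 2.28 in Vehicle libraries. Those of Hx1R8 lay within or just above the Vehicle values, and the groups overlapped. DSC3 (30989365 to 31042815, minus strand) had 0.988 and 0.979 CPM per kilobase in Hx1R8 libraries, against 0.787 and 0.796 in Vehicle libraries, from 131 and 158 reads against 106 and 106 reads. Both Hx1R8 libraries lay above both Vehicle libraries, with replicates of a group close together. DSC3 made up 27.3% and 27.8% of the summed DSC2 and DSC3 level in Hx1R8 libraries, against 23.3% and 25.9% in Vehicle libraries. With median GENCODE lengths its mean share was 14.1% in Hx1R8 and 12.3% in Vehicle. By listed exon length DSG2 stood 33.4-fold to 34.4-fold above DSC3 in Hx1R8 libraries and 40.5-fold to 42.0-fold above it in Vehicle libraries. With median GENCODE lengths the gap was wider, at means over the 4 libraries of 54.4 CPM per kilobase for DSG2 and 0.982 for DSC3. That widening depends on the DSG2 median, which lies midway between transcripts of 1081 and 5831 bases, the longer near the listed length.

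All 7 desmosomal cadherin genes lie in a single cluster on chromosome 18, and reads came mainly from its ends. In chromosomal order DSC3 and DSC2 were read at the start, followed by DSC1, DSG1, DSG4 and DSG3, with at most 8 reads in any library, and by DSG2 at the end. DSC1 had 0 reads in every library. DSG1, a desmoglein of the upper epidermis, had 8 and 3 reads in Hx1R8 libraries, against 0 and 1 reads in Vehicle libraries, too few to pass the filter on low counts. DSG4, a desmoglein of the hair follicle, had 2 and 2 reads in Hx1R8 libraries, against 1 and 1 reads in Vehicle libraries. The antisense genes DSG1-AS1 and DSG2-AS1 had 2 to 9 reads per library. DSG2 shares 171 of its 5696 exon bases with DSG2-AS1 on the opposite strand, and none of the other 9 desmosome genes of the rule shares an exon base with another listed gene. Outside the 10, DSC1 shares 255 bases with DSCAS and DSG1 shares 276 with DSG1-AS1.

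**Figure D2:**
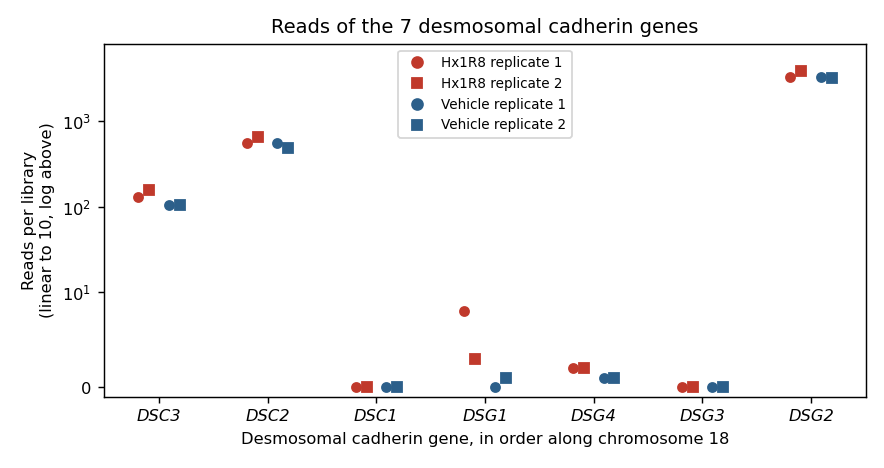
Reads per library (linear up to 10, log above) of the 7 desmosomal cadherin genes in their order along chromosome 18, with groups by colour and replicates by shape. DSC3, DSC2 and DSG2 have over 100 reads in every library, and the 4 genes between DSC2 and DSG2 have 0 to 8.

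The promoters of these cadherins are shown because neighbouring paralogs differed so widely in reads. The RefSeq promoter table (GRCh38.p14) held 10 starts for 8 of the 10 genes. PKP2 and PKP3 had no entry there. Each sequence below is the 250 bases before the start nearest to that of the deposited table, 5′ to 3′ on the strand of the gene, with CG dinucleotides in capitals. The windows are chr18:31497927-31498176 (plus) for DSG2, chr18:31447491-31447740 (plus) for DSG3, chr18:31102422-31102671 (minus) for DSC2 and chr18:31042743-31042992 (minus) for DSC3.
DSG2: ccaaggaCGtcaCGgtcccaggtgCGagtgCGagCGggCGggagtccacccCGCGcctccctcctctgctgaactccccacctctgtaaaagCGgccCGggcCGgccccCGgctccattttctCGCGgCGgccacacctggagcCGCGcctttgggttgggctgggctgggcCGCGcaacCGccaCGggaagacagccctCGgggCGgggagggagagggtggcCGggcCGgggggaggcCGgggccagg
DSG3: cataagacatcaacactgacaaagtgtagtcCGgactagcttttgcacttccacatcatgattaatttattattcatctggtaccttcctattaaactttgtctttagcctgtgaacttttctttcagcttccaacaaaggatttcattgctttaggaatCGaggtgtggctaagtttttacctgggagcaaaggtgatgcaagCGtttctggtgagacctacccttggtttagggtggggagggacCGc
DSC2: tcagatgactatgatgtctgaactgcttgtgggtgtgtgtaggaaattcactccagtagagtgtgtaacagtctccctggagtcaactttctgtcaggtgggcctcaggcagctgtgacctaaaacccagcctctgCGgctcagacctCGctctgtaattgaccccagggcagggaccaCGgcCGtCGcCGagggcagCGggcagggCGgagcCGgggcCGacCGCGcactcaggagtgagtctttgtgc
DSC3: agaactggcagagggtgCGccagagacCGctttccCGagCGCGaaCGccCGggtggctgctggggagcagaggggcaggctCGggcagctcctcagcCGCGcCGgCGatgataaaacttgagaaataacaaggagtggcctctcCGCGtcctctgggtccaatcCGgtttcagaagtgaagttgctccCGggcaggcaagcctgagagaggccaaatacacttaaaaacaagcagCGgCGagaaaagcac
The DSG2 window holds 26 CG dinucleotides at 75.2% G and C, and the DSG3 window holds 4 at 42.8%. DSC2 holds 12 and DSC3 holds 18, against a median of 11 over 35116 promoters in the table. A second DSC2 start, 1161 bases from that of the deposited table, has a window with 19. PERP, with 34, and DSP, with 33, were above 93.2% and 91.9% of promoters. PKP1, with almost no reads, holds 17, the same number as the window nearest to the JUP start. The SOX core ACAANG, searched on both strands, occurs 3 times in the DSG3 window and once each in the printed windows of DSC2 and DSC3. It is absent from the DSG2 window and from that of the second DSC2 start, and 30.9% of all promoters hold it. The grainyhead core AACCNGTT was found in none of the 10 windows, and 1.49% of all promoters hold it. The motifs were searched independently of one another, so matches may overlap. A match of letters is not a binding site.

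Among the armadillo genes of the 10, JUP had the highest level, followed by PKP3. JUP (chromosome 17, 41754607 to 41786768), which binds both desmosomal and classical cadherins, had 36.7 and 37.8 CPM per kilobase in Hx1R8 libraries, against 36.1 and 38.6 in Vehicle libraries. Its Hx1R8 values lay inside the Vehicle range. PKP3 (chromosome 11, 392596 to 404908) had 24.3 and 24.6 CPM per kilobase in Hx1R8 libraries, against 25.6 and 24.9 in Vehicle libraries. Both Hx1R8 libraries lay below both Vehicle libraries, by little. PKP2 (chromosome 12, 32790746 to 32896846), the plakophilin of simple epithelia and of heart, had 5.10 and 5.48 CPM per kilobase in Hx1R8 libraries, against 5.09 and 4.73 in Vehicle libraries. The lowest Hx1R8 value lay just above the highest Vehicle value.

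PKP1 (chromosome 1, 201283452 to 201332993), the plakophilin of stratified epithelia, had 3 and 5 reads in Hx1R8 libraries, against 2 and 4 reads in Vehicle libraries. It did not pass the filter on low counts and the groups overlapped. Of the summed level per kilobase of PKP1, PKP2 and PKP3, with the relative PKP4 not counted, PKP3 made up 82.1% ± 0.65 in Hx1R8 and 83.7% ± 0.39 in Vehicle (SD, n = 2 each). PKP2 made up 17.8% ± 0.62 in Hx1R8 and 16.2% ± 0.44 in Vehicle (SD, n = 2 each). PKP1 made up 0.127% ± 0.026 in Hx1R8 and 0.106% ± 0.053 in Vehicle (SD, n = 2 each). With 2 libraries a group no exact permutation test of such a share can give a two-sided p under 0.333, so none was run.

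DSP (chromosome 6, 7541671 to 7586714), the plakin that anchors keratin filaments, had 44.8 and 45.1 CPM per kilobase in Hx1R8 libraries, against 43.3 and 44.7 in Vehicle libraries. Both Hx1R8 libraries lay above both Vehicle libraries, by little. PERP (chromosome 6, 138088505 to 138107419), a tetraspan membrane protein of desmosomes that is also a p53 and p63 target, had 149 and 155 CPM per kilobase in Hx1R8 libraries, against 158 and 152 in Vehicle libraries. The groups overlapped. PERP alone accounted for 50.5% of the summed level of the 10 genes in Hx1R8 and 51.3% in Vehicle. It stood 3.32-fold and 3.45-fold above DSP in Hx1R8 libraries, and 3.65-fold and 3.41-fold above DSP in Vehicle libraries.

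No desmosome gene passed the threshold for a difference between Hx1R8 and Vehicle. Counts were compared with edgeR's quasi-likelihood test over 14482 genes that passed a filter on low counts, with a Benjamini-Hochberg adjusted p under 0.05 as the threshold. Of the 10 genes 8 were tested, and 0 passed, against 0.0207% of all genes tested. Over all genes 2 were higher in Hx1R8 (0.0138%) and 1 was lower (0.00691%), none of them a desmosome gene. DESeq2 and limma-voom also called 0 of them. At an unadjusted edgeR p under 0.05 there was 1 of the 8, DSC3, against 491 of all 14482 genes tested. The median log2 fold change of the 8 was 0.03, against -0.0018 for all genes tested, with 5 above 0 and 3 below. Both Hx1R8 libraries lay above both Vehicle libraries for 3 of the 8 (DSP, PKP2 and DSC3), against 14.7% of all genes, and below them for 1 (PKP3), against 15.2%.

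DSC3 had the largest log2 fold change of the tested desmosome genes, 0.31 (SE 0.14), or 1.24-fold. Its 95% interval by edgeR ran from 1.02-fold to 1.51-fold, and the edgeR adjusted p was 0.9999, with 2 of 2 Hx1R8 libraries above both Vehicle libraries. DESeq2 gave DSC3 a similar value of 0.32 but a larger SE of 0.24, at an unadjusted DESeq2 p of 0.185. The unadjusted limma-voom p was 0.033. Leaving out each library in turn gave 0.30 to 0.32 for DSC3. With replicates so close together, leaving out 1 library could move that value little. PKP2 followed at 0.11 (SE 0.08), with an interval from 0.961-fold to 1.22-fold. DSC2 was at 0.09 (SE 0.08), with an interval from 0.956-fold to 1.18-fold. That of DSC2 depended on single Vehicle libraries, at 0.18 without Vehicle replicate 1 and 0.00048 without Vehicle replicate 2. The PKP2 value moved to 0.06 without Hx1R8 replicate 2 or without Vehicle replicate 2, and to 0.16 or 0.17 without Hx1R8 replicate 1 or without Vehicle replicate 1.

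The abundant desmosome genes had the narrowest intervals, which rest mostly on a spread shared over genes. DSG2 was at 0.03 (SE 0.05) and DSP at 0.03 (SE 0.05), with intervals from 0.955-fold to 1.09-fold and from 0.958-fold to 1.09-fold. PKP3 was at -0.05 (SE 0.06), with an interval from 0.896-fold to 1.05-fold. PERP was at -0.03 (SE 0.05) and JUP at -0.0022 (SE 0.05), with intervals from 0.918-fold to 1.04-fold and from 0.931-fold to 1.07-fold. The sign of PERP turned without Hx1R8 replicate 1, and that of JUP turned without Hx1R8 replicate 1, without Vehicle replicate 2 and without the filter. The edgeR adjusted p of each was 0.9999. Without Vehicle replicate 2, the library that stood furthest from the others, the log2 fold change was 0.01 for DSG2, 0.05 for DSP, -0.06 for PKP3, -0.06 for PERP and 0.05 for JUP. The 95% interval of 6 of the 8 lay inside 1.2-fold in either direction, against 57.6% of all genes tested, and that of 7 inside 1.5-fold, against 81.4%. In bulk RNA fewer cells of a kind and less RNA per cell cannot be told apart.

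**Figure D3:**
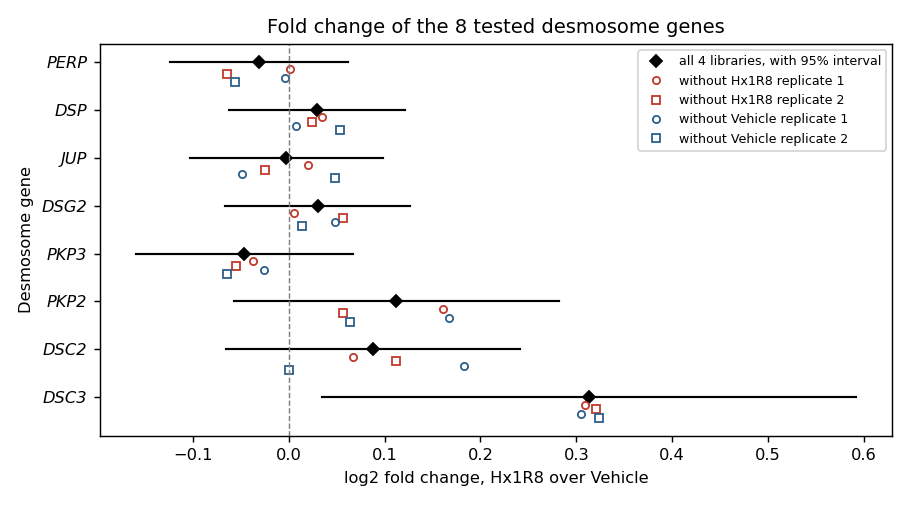
Log2 fold change, Hx1R8 over Vehicle, of the 8 tested desmosome genes, as black diamonds with 95% intervals, and with each library left out, as open symbols. DSC3 stays between 0.30 and 0.32 in every setting shown, and the open symbols of PERP and JUP fall on both sides of 0.

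Other desmosome and plakin genes were likewise not past the threshold. Of 9 such genes 5 were tested and 0 passed, with a median log2 fold change of 0.02. PNN and PKP4 had the highest levels per kilobase of that list, at 46.5 ± 0.46 and 23.8 ± 0.72 in Hx1R8, against 46.0 ± 1.62 and 24.1 ± 0.56 in Vehicle (SD, n = 2 each). PKP4 is a plakophilin relative also found at adherens junctions. The plakin EVPL, a cornified envelope precursor, was at a log2 fold change of 0.10 (SE 0.07), and KAZN at 0.17 (SE 0.16). KAZN was at 0.33 without Vehicle replicate 1 and 0.04 without Vehicle replicate 2. CDSN, the corneodesmosome protein, had at most 7 reads per library.

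Among the listed filament genes KRT8, VIM, KRT18 and KRT19 had the highest levels per kilobase. KRT8 had 261 ± 1.62 CPM per kilobase in Hx1R8 and 268 ± 10.7 in Vehicle, and VIM, the mesenchymal filament protein, had 240 ± 1.38 in Hx1R8 and 239 ± 11.1 in Vehicle (SD, n = 2 each). KRT18 and KRT19 stood at 235 ± 2.60 and 224 ± 2.75 CPM per kilobase in Hx1R8, against 233 ± 7.63 and 225 ± 6.53 in Vehicle (SD, n = 2 each). The simple epithelial keratin KRT7 had 1.55 ± 0.33 CPM per kilobase in Hx1R8 and 1.33 ± 0.086 in Vehicle (SD, n = 2 each). KRT6A and KRT15, keratins of stratified epithelia, had 7.56 ± 0.23 and 1.91 ± 0.017 in Hx1R8, against 8.58 ± 0.053 and 2.45 ± 0.16 in Vehicle (SD, n = 2 each). KRT14, a basal keratin, had 0 reads in every library, as DSG3 had. KRT5, also a keratin of basal cells, had 20 and 40 reads in Hx1R8 libraries, against 25 and 33 reads in Vehicle libraries. Of 13 listed keratin and vimentin genes 8 were tested and 0 passed, with a median log2 fold change of -0.02. KRT6A was at -0.18 (SE 0.09) and KRT15 at -0.36 (SE 0.18). KRT5, KRT7, KRT14, KRT18 and KRT19 were chosen after their values were seen.

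Other junction lists also held 0 genes past the threshold by edgeR, DESeq2 and limma-voom. Of 14 adherens junction genes 12 were tested, with a median log2 fold change of 0.01, and CTNNB1, the catenin most like JUP, had 179 ± 1.83 CPM per kilobase in Hx1R8 and 175 ± 0.56 in Vehicle (SD, n = 2 each). CTNNA1 was at 0.01 (SE 0.05), CDH1 at -0.09 (SE 0.10) and CTNNA2 at -0.19 (SE 0.11). Of 16 tight junction genes 15 were tested, with a median of -0.03, including F11R at -0.01 (SE 0.05), CLDN7 at -0.07 (SE 0.06), PARD3 at 0.11 (SE 0.06) and CLDN4 at -0.71 (SE 0.38). CLDN4 was at -0.04 without Vehicle replicate 1 and -1.17 without Vehicle replicate 2. All 9 hemidesmosome genes were tested, with a median of -0.03, including ITGA6 at -0.0025 (SE 0.05), CD151 at -0.02 (SE 0.06), DST at 0.08 (SE 0.05) and LAMA3 at -0.61 (SE 0.44). LAMA3 was at -0.26 without Hx1R8 replicate 1 and -1.19 without Hx1R8 replicate 2. Over these 3 lists, the 8 keratin and vimentin genes tested and the 5 other desmosome genes tested, 1 gene had an unadjusted edgeR p under 0.05, KRT6A. Over all genes 491 of 14482 tested had such a p.

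Factors and enzymes known to act on desmosomes were described in the same way. Of 15 epithelial and mesenchymal transcription factors 13 were tested and 0 passed, with a median log2 fold change of 0.04. Among them KLF4 was at -0.04 (SE 0.05), KLF5 at 0.05 (SE 0.05), SNAI1 at 0.76 (SE 0.35) and GRHL3 at 0.67 (SE 0.45). SNAI1, a repressor of epithelial genes, had an unadjusted p under 0.05 with 1.39 ± 0.42 CPM in Hx1R8 and 0.805 ± 0.17 CPM in Vehicle (SD, n = 2 each). Its log2 fold change was 0.45 without Hx1R8 replicate 1 and 1.06 without Hx1R8 replicate 2. The grainyhead factor GRHL2 had 0 and 0 reads in Hx1R8 libraries, against 1 and 0 reads in Vehicle libraries, and was chosen after its values were seen. Of 8 kinases and proteases 7 were tested and 0 passed, with a median of 0.0014. SRC was at -0.08 (SE 0.05), ADAM15 at -0.06 (SE 0.06) and the sheddase ADAM10 at 0.0014 (SE 0.05).

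**Figure D4:**
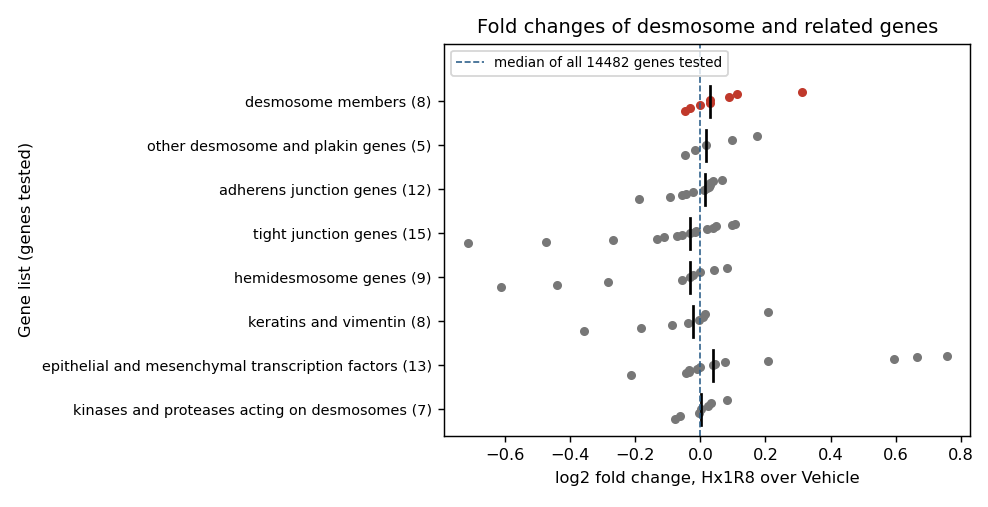
Log2 fold change, Hx1R8 over Vehicle, of each tested gene (points) in the desmosome list and in 7 related lists, with each list's median as a black bar. The medians lie between -0.03 and 0.04, near the dashed line at -0.0018 for all genes tested, and no point is past the threshold.

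Markers of the labelled cell type were mixed. SOX2 stood at 510 ± 17.4 CPM in Hx1R8 and 528 ± 18.7 CPM in Vehicle (SD, n = 2 each). TP63, which drives several desmosome genes in epidermis, stood at 0.648 ± 0.095 CPM in Hx1R8 and 0.431 ± 0.044 CPM in Vehicle (SD, n = 2 each). PITX1 stood at 137 ± 2.85 CPM in Hx1R8 and 126 ± 1.57 CPM in Vehicle (SD, n = 2 each). Its log2 fold change was 0.12 (SE 0.05), with an unadjusted edgeR p under 0.05 and an adjusted p of 0.9999. KRT6A had 17.5 ± 0.53 CPM in Hx1R8 and 19.8 ± 0.12 CPM in Vehicle (SD, n = 2 each). KRT5 had 1.54 ± 0.53 CPM in Hx1R8 and 1.67 ± 0.34 CPM in Vehicle (SD, n = 2 each), and KRT14 was at 0. Most markers of other cells were scarce. Summed CPM over 6 fibroblast markers was 8.25 to 8.83 in Hx1R8 and 8.69 to 8.79 in Vehicle, with COL3A1 at 0. Most of that sum was COL1A1, at a mean of 7.74 CPM in Hx1R8 and 8.19 CPM in Vehicle. Over 6 immune markers the sum was 2.38 to 2.86 in Hx1R8 and 3.01 to 3.49 in Vehicle, with PTPRC and CD3E at 0. CD14 was the highest of them, at a mean of 1.02 CPM in Hx1R8 and 1.35 CPM in Vehicle. Over 5 endothelial markers the sum was 2.50 to 3.34 in Hx1R8 and 3.83 to 3.99 in Vehicle, with PECAM1 at 0. KDR was the highest of them, at a mean of 1.42 CPM in Hx1R8 and 1.98 CPM in Vehicle. Over 5 alveolar markers it was 19.3 to 19.5 in Hx1R8 and 19.9 to 22.2 in Vehicle, with SFTPC at 0. Of the markers of other cells, 5 fibroblast, 5 immune, 3 endothelial and 2 alveolar markers averaged below 1 CPM. The immune, endothelial and alveolar sums were lower in both Hx1R8 libraries, and the fibroblast sums overlapped. Of all genes tested 15.2% lay lower in both Hx1R8 libraries than in both Vehicle libraries. SFTPA1 had 15 and 18 reads in Hx1R8 libraries, against 32 and 25 reads in Vehicle libraries. Its log2 fold change was -0.92 (SE 0.32), with an unadjusted edgeR p under 0.05 and an adjusted p of 0.9999. The part of these sums in the values above was not tested.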

How the data were processed

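RNA sequencing was analysed in 4 NCI-H520 libraries. The authors deposited raw counts per gene with exon coordinates and a summed exon length. The submitters' processing notes name STAR 2.7.9 and hg38. How reads were assigned to genes, with which annotation and strand setting, is not stated in the labels or file headers. A row broken over 2 lines, with no reads, was left out, which left 28277 genes. Total counts ran from 17259403 to 20920857 per library, and a floor of 3 counts equals 0.143 to 0.174 CPM per library.

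The two-sided quasi-likelihood test of edgeR 4.0.16 (R 4.3.3) was run with TMM factors (0.998 to 1.00), filterByExpr, group as the only term and Benjamini-Hochberg adjustment over 14482 genes. The test drew the spread of each gene towards that of other genes. A gene brought 2 degrees of freedom of its own, against a median of 36.9 from the other genes. CPM was divided by listed exon length to compare genes. Every pair of libraries differed by more than sampling noise (chi-square per gene from 1.49 to 2.95), so none was treated as a copy. Alternatives included DESeq2 1.42.0, limma-voom (limma 3.58.1), other factors and filters, a replicate block and each library left out.

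The members and lists were chosen with earlier results of these data known. All 10 desmosome genes are named. Of each other list the rule names the 2 tested genes with the smallest unadjusted p and the 2 with the highest level per kilobase. Genes outside that rule are marked in the text, apart from CDSN, the cell type markers named, TP63 among them, and the genes of the cadherin cluster. Those were also chosen after their values were seen.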

Additional observations from a re-analysis of the deposited data

How the results depend on the processing

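Across 13 alternatives with edgeR, DESeq2 or limma-voom, 0 desmosome genes and 0 genes of the 7 related lists passed the threshold. Of 104 recomputed log2 fold changes of the 8 tested desmosome genes, 100 kept their sign and 4 turned, and of 348 for 27 genes of the other lists 17 turned, none with a call and the cause not tested. Without a low-count filter, JUP turned to 0.0021 and ITGA6 to 0.0018. With 1 library left out, JUP ranged from -0.048 to 0.048, PERP from -0.064 to 0.0019, PNN from -0.017 to 0.053, PKP4 from -0.047 to 0.013, CTNNA1 from -0.026 to 0.049, F11R from -0.078 to 0.055, CD151 from -0.063 to 0.022, ITGA6 from -0.021 to 0.017, KRT8 from -0.078 to 0.0054, VIM from -0.039 to 0.058, ADAM15 from -0.14 to 0.022 and ADAM10 from -0.044 to 0.051. Over all genes, 1 was higher in Hx1R8 with DESeq2 and 1 with robust dispersions, and leaving out 1 library gave 2 to 41 higher and 1 to 38 lower; the lone sample was then assumed to vary like the other group. A replicate block gave 2 genes higher and 1 lower in Hx1R8; deviations of libraries with the same number had a correlation of 0.03 over genes, and nothing else pairs them. Median GENCODE v29 transcript lengths, chosen after seeing the data, moved the DSC3 share of the desmocollin level to 14.1% in Hx1R8 and 12.3% in Vehicle, since DSC2 is shorter there. Under either length, 7 of the 10 desmosome genes were above 1 CPM per kilobase in every library. DSG3 had no read to test, and PKP1, tested only without the filter, was at 0.27 (SE 0.92, edgeR adjusted p = 0.995). With 1 library left out, KAZN ranged from 0.037 to 0.33, LAMA3 from -1.19 to -0.26 and SNAI1 from 0.45 to 1.06.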
